A study of Bos grunniens with 36 samples.

Results

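ELP, RNASE3, KLK6 and A2ML1 are 4 genes for secreted proteins of the udder that act on other proteins or on microbes. They are 4 of the 20643 genes or unnamed transcripts measured here, and 5 of the 34997 probes in the deposited value table carry their symbols. The 4 were chosen by their measured log2 levels in these same arrays, which swing widely over the study's days. The size of each swing and the days at its ends are therefore described below and not tested. Where a symbol had several probes, the probe with the highest mean over the 36 columns stood for the gene.

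The study followed the mammary gland of female yaks (Bos grunniens) from late pregnancy through a lactation. Parenchyma was biopsied from the same 4 animals at 9 times: 30 and 15 days before calving (day -30 and day -15) and on day +1, +15, +30, +60, +120, +180 and +240 after it. Each biopsy gave 1 single-colour array of a cattle design, so each day has 4 arrays. All 9 groups share the tissue, sex and species, the labels name no strain, age or treatment, and biopsies were taken in turn from the left and the right side of the rear udder, without saying which for each array.

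Milk and colostrum are protected by protease inhibitors and by antimicrobial proteins, and the gland's own proteases and inhibitors change as it moves from growth to secretion. ELP, early lactation protein, is a Kunitz-type inhibitor of trypsin-like proteases that is secreted into colostrum. RNASE3 belongs to the ribonuclease A family and is related to eosinophil cationic protein, a toxic granule protein of eosinophils. KLK6 is a trypsin-like secreted serine protease of the kallikrein-related family, whose genes lie side by side in 1 cluster. A2ML1 is a broad protease inhibitor of the alpha-2-macroglobulin family, which traps proteases and is best known from stratified epithelium.

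The probes are shown because each level below rests on 1 or 2 short stretches of a cattle transcript, hybridised with yak RNA. They are 60 bases long. For the KLK6 probe near the 3′ end and the A2ML1 probe, the first 30 bases are given.

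ELP, probe A_73_P074626: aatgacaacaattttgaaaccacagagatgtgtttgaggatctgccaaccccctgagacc

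RNASE3, probe A_73_P038591: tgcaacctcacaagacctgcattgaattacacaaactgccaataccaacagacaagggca

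KLK6, probe A_73_108519: attgaaggttgtaaaagtgtgaaacacaag

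KLK6, probe A_73_P277101: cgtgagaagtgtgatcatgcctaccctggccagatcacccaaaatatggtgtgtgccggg

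A2ML1, probe A_73_107906: tgatgttgttgaacagcattcttctgtctc

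On the cattle assembly UMD 3.1 the ELP probe lies on the minus strand within chr13:74484193-74484946. Its 60 bases span 754 bases of genome there, so the match is split by a gap. The file annotates the transcript, ENSBTAT00000021466, as an uncharacterised protein. The RNASE3 probe, for NM_001105511, has no position in the file, and whether related ribonuclease genes also bind it could not be checked. The KLK6 probe used for the gene starts at base 1382 of NM_001101140, on the minus strand at chr18:57404817-57404876. The other KLK6 probe starts at base 716 of the same transcript, at chr18:57406604-57406663. The A2ML1 probe starts at base 4227 of NM_001191301, on the minus strand at chr5:101495712-101495771. KLK6 and A2ML1 are symbols of the yak gene table (RefSeq), and ELP and RNASE3 are not among its symbols.

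Levels are the authors' log2 values, in which 0 is the 75th percentile of the array's signal, so that a level compares days within 1 probe and not different probes. In these bulk biopsies fewer cells of a type and less RNA per cell cannot be told apart. The days used are those of the value table. Its 36 columns each match 1 scanner file, but a file deposited under another sample in all 36 cases. The scanner files' record also numbers the animals differently, with the table's 1, 2, 3 and 4 as its 2, 3, 4 and 1. Animal numbers here are the table's throughout. For animal 4 both records give the same day (9 arrays). For animals 1, 2 and 3 the scanner files' record gives the sampling one step earlier (27 arrays, with day -30 becoming day +240). The table's record puts each of the 9 slides on 1 day, so slide and day cannot be told apart. Brightness differed between arrays, with a 75th percentile of 1029 units on the dimmest and 6450 on the brightest. The share of spots marked well above background was 68.6% at the least and 89.3% at the most, and 0 spots were saturated. Arrays of day -30 and day -15 were among the brightest (4853 to 5752 units), and all arrays of day +15 and day +60 were dimmer than those (1029 to 2512 units). Arrays of animal 4 at day +120 and at day +180 stood apart, with a mean log2 level of 6 milk protein genes of 0.04 and -0.08, against 3.94 to 8.50 on the other 26 lactation arrays. Values with and without them are given where they matter. For luminal secretory epithelium, the milk-making cell type, 14 of 14 listed markers were measured, with a mean log2 level of 0.76 to 6.39 over the arrays. By limma 7 were higher and 0 lower in lactation than in pregnancy, where 16.6% of all genes were higher and 19.3% lower. The counts were 9 and 0 at an unadjusted p under 0.05, and 6 and 0 by ordinary linear models. Without the arrays of animal 4 that stood apart, 12 were higher and 0 lower, and with array brightness as a covariate 0 were higher and 3 lower.

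By the table's days, the 4 genes were low from different samplings on. A2ML1 was low from day +1, KLK6 from day +15 and ELP from day +120, and RNASE3 was low in 3 of 4 animals at day +1, high at day +15 and low from day +120. This did not hold on every array. In animal 4 at day +240 ELP was at 4.81 and RNASE3 at 2.47. In animal 3 at day +30 A2ML1 was at -1.52 and KLK6 at -1.83. The lowest day mean was that of day +180 for ELP, RNASE3 and KLK6 and that of day +15 for A2ML1. Between the highest and the lowest day mean the difference was 8.44 for ELP, 8.19 for RNASE3, 6.94 for KLK6 and 5.32 for A2ML1 on the log2 scale. These are rank 5, 10, 21 and 61 of 20643, where the median gene had a difference of 1.03 and 80 genes had one over 5. On the lowest day the spot was well above background on 4 of 4 arrays for ELP, 2 of 4 for RNASE3, 0 of 4 for KLK6 and 2 of 4 for A2ML1. The difference and the rank of the last 3 genes therefore rest in part on signals near background.

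**Figure D1:**
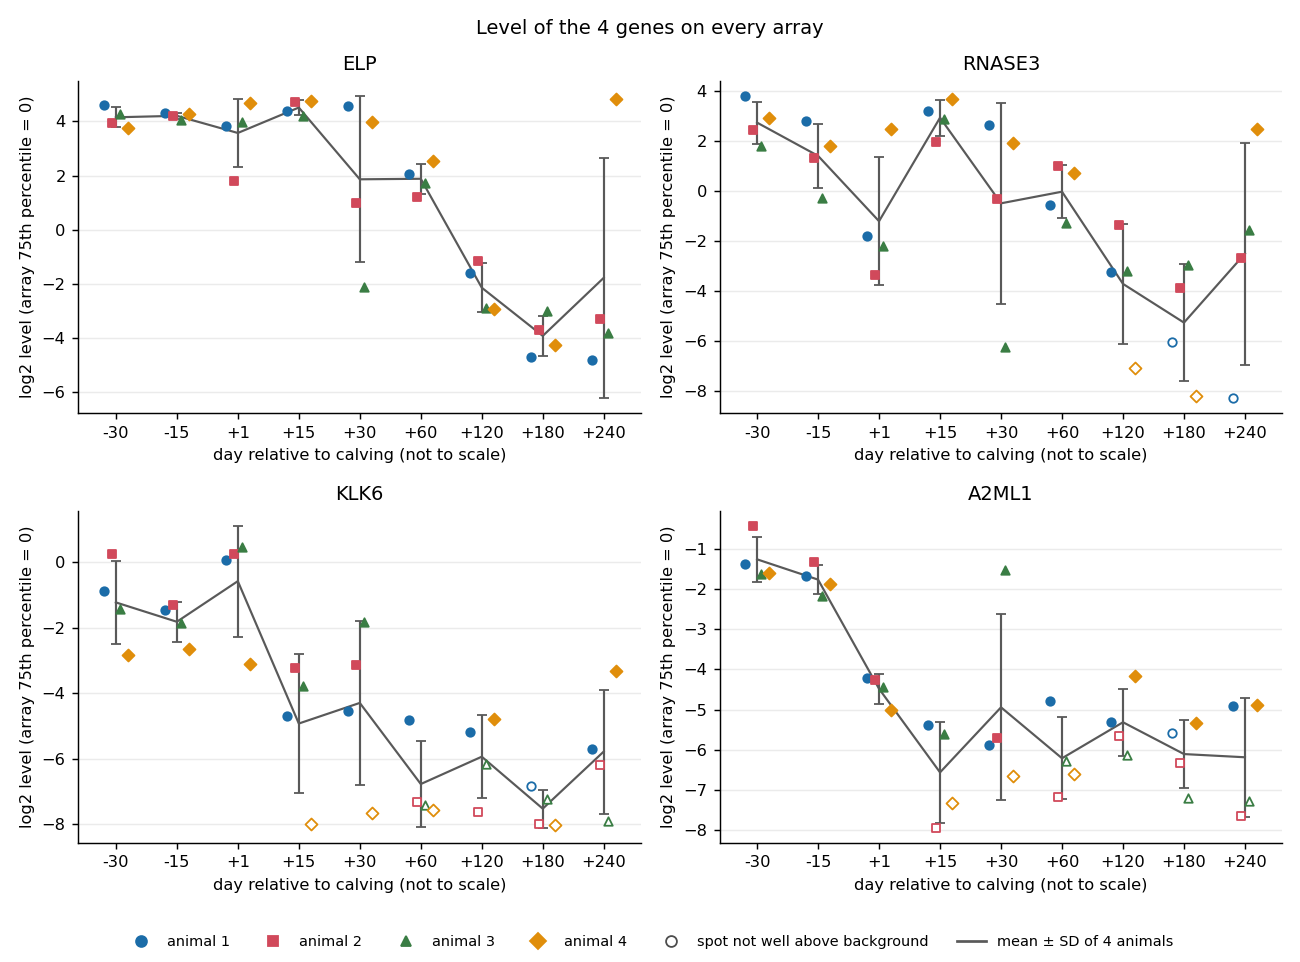
Each point is 1 array: the horizontal axis gives the sampling day (not to scale), the vertical axis the log2 level with the array's 75th percentile at 0, the grey line joins day means with bars of 1 SD over 4 animals, and open symbols mark spots not well above background. ELP stays near 4 until day +15 and lies below -1 on every array of day +120 and day +180, while A2ML1 is already lower at day +1 and KLK6 at day +15.

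ELP was high before calving and in early lactation. Its log2 levels in animals 1 to 4 were 4.62, 3.94, 4.28 and 3.77 at day -30, and 4.32, 4.21, 4.05 and 4.26 at day -15. At day +1 they were 3.84, 1.78, 3.98 and 4.70, and at day +15 they were 4.38, 4.73, 4.20 and 4.74. The first 4 sampling days overlapped, and animal 2 at day +1 was the 1 low array among these 16. The day mean ± SD (n = 4) was 4.16 ± 0.38 at day -30 and 4.52 ± 0.27 at day +15, the highest of the course. Which of these days is highest depended on the processing. It was day -15 (4.72) under quantile normalization and day -30 (5.70) with array brightness as a covariate, where the mean of day +15 was 3.38.

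At day +30 ELP differed widely between animals, and later it was low in nearly all of them. At day +30 the levels were 4.57, 0.99, -2.10 and 3.99, the widest spread but 1 of any day (SD 3.07), with animals 1 and 4 near the levels of day +15 and animal 3 below 0. At day +60 they were 2.06, 1.21, 1.73 and 2.53, below every array of day +15. At day +120 the levels were -1.59, -1.17, -2.88 and -2.93, and at day +180 they were -4.71, -3.72, -3.01 and -4.26.

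Every array of day +120 lay below every array of day +60, a difference of means of -4.03 on the log2 scale (16.3-fold, SD of the 4 animals' own differences 1.33). The same held for RNASE3, and for 640 of all 20643 genes (3.10%). For ELP every array of day +180 also lay below every array of day +120, and day +180 had its lowest mean (-3.93 ± 0.73). The difference between day +15 and day +180 is 347-fold, and the ELP spot was well above background on 4 of 4 arrays at both ends.

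At day +240 the 4 animals did not share a level. Animals 1, 2 and 3 were at -4.82, -3.29 and -3.82, and animal 4 was at 4.81, the highest ELP level on any of the 36 arrays. The mean of day +240 was -1.78 ± 4.44 with animal 4 and -3.96 without it (an alternative chosen after the data were seen). RNASE3 on the same array was 2.47, against -8.28, -2.68 and -1.57 in the other animals. The mean milk protein level on that array was 7.33, within the range of the other lactation arrays.

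RNASE3 was high in late pregnancy, low in most animals just after calving, and high again by day +15. Its levels were 3.78, 2.43, 1.79 and 2.89 at day -30 and 2.78, 1.30, -0.29 and 1.78 at day -15, lower in 4 of 4 animals. At day +1 they were -1.79, -3.37, -2.19 and 2.48. At day +15 they were 3.18, 1.96, 2.86 and 3.68, higher than at day +1 in 4 of 4 animals. With array brightness as a covariate the day means were 5.83, 4.17, 0.11 and 0.63 from day -30 to day +15, so day +15 then lay near day +1 and below late pregnancy.

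The low level at day +1 is that of animals 1, 2 and 3. Animal 4 was at 2.48 against its own 1.78 at day -15, so the groups of day +1 and day +15 overlap, and the difference of means was 4.14 with an SD of the animals' own differences of 1.96. ELP in animals 1, 3 and 4 was at 3.84 or more at day +1.

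After day +15 the animals had uneven RNASE3 levels. At day +30 its levels were 2.63, -0.32, -6.24 and 1.91, and at day +60 they were -0.57, 0.98, -1.28 and 0.71. At day +120 they were -3.24, -1.39, -3.20 and -7.07, at day +180 they were -6.04, -3.90, -2.95 and -8.19, and at day +240 they were -8.28, -2.68, -1.57 and 2.47.

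All arrays of day +120 lay below all arrays of day +60, and the mean of day +180, the lowest, was -5.27 ± 2.34 against 2.92 ± 0.72 at day +15. Leaving out the pair of arrays poor in milk protein mRNA (an alternative chosen after the data were seen), the mean was -2.36 in place of -3.72 at day +120 and -4.05 in place of -5.27 at day +180, and the largest difference between day means became 6.97. The spot was well above background on 3 of 4 arrays at day +120, 2 of 4 at day +180 and 3 of 4 at day +240, so the lowest values are near the limit of the array. Of the 36 pairs of days, the 4 arrays of one day lay wholly apart from those of the other in 10 for RNASE3, against 15 for ELP, 15 for KLK6 and 14 for A2ML1. The genes were chosen for their swing over these days and no count over all genes stands beside these. Nothing is therefore read from them.

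RNASE3 and milk protein mRNA were low on the same lactation arrays. The 4 lowest RNASE3 levels among the 28 lactation arrays were -8.28 (animal 1, day +240), -8.19 (animal 4, day +180), -7.07 (animal 4, day +120) and -6.24 (animal 3, day +30). The 4 lowest mean levels of CSN1S1, CSN1S2, CSN2, CSN3, LALBA and PAEP, genes of the main milk proteins, were on the same 4 arrays: 4.23, -0.08, 0.04 and 3.94.

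As deviations from the day mean, RNASE3 and milk protein mRNA had a Pearson r of 0.70 over the 28 lactation arrays, and ELP had 0.33. For A2ML1 that r was -0.57 and for KLK6 -0.31. These correlations describe arrays that share libraries, slides and brightness, and array brightness ran opposite to milk protein mRNA (r of deviations -0.81). Over all 36 arrays, RNASE3 deviations had an r of -0.80 with log2 brightness and of 0.69 with milk protein mRNA. The part of brightness or cell content in the RNASE3 values was not tested.

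**Figure D2:**
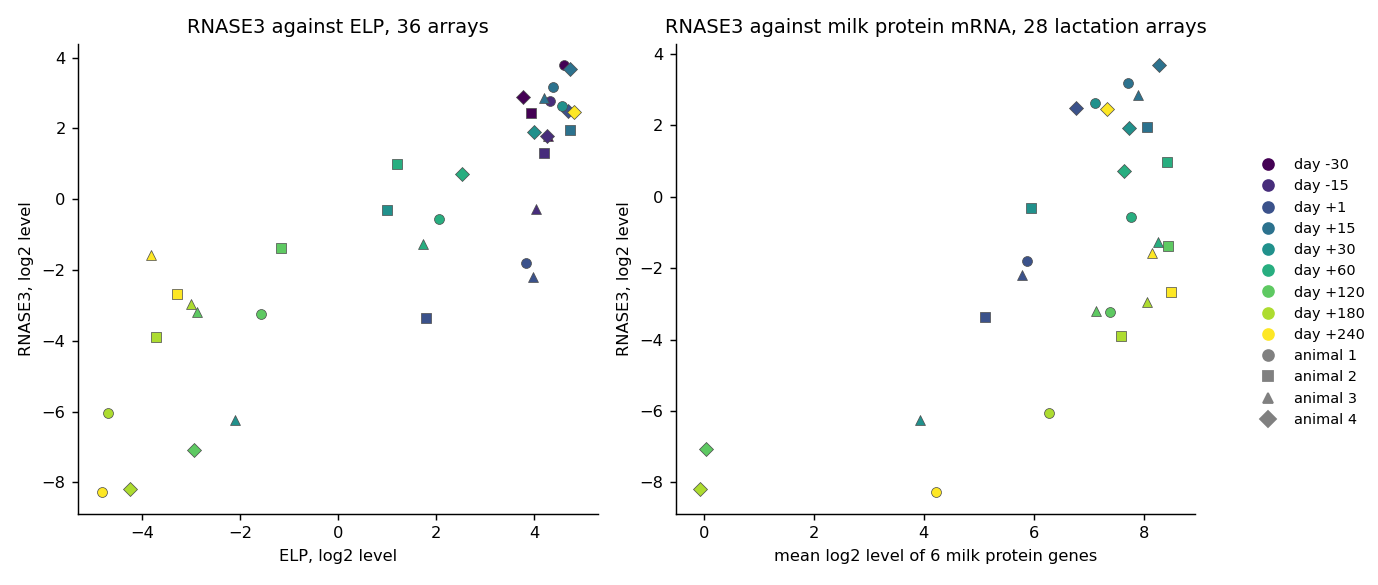
Left, RNASE3 against ELP log2 level on 36 arrays; right, RNASE3 log2 level against the mean log2 level of 6 milk protein genes on the 28 lactation arrays, with colour for day and symbol for animal. The 4 arrays lowest in RNASE3 (-8.28 to -6.24) are the 4 lowest in milk protein mRNA, and ELP and RNASE3 are high together in the upper right corner of the left panel.

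ELP and RNASE3 varied together. Their r was 0.87 over 36 arrays, 0.93 over the 9 day means and 0.78 over deviations from the day mean. KLK6 and A2ML1 formed the other pair, with 0.74 over the arrays, 0.79 over day means and 0.61 over deviations. Between the pairs the deviations did not run together: the r was -0.04 for ELP with KLK6, -0.23 for ELP with A2ML1, -0.34 for RNASE3 with KLK6 and -0.53 for RNASE3 with A2ML1. Brightness moved with this split, since the r of deviations with log2 brightness was -0.52 for ELP, 0.63 for KLK6 and 0.67 for A2ML1. Its part in the pairs was not tested.

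Eosinophil markers were examined because of the family RNASE3 belongs to. Of the 9 listed, 5 were measured (EPX, PRG3, CCR3, GATA1 and CEBPE), and their mean log2 level ran from -5.45 to -3.22 over all 36 arrays. By limma 1 passed the F test over days (42.1% of all genes did), and 2 were higher and 0 lower in lactation than in pregnancy, where 16.6% of all genes were higher and 19.3% lower. At an unadjusted p under 0.05 the counts were 2 and 1, by ordinary linear models 2 and 0, and with brightness as a covariate 0 and 1. EPX, eosinophil peroxidase, had its highest day mean at day -30 (-4.63) and its lowest at day +60 (-5.82), a difference of 1.19 where RNASE3 differed by 8.19. EPX was well above background on 29 of 36 arrays. It was past the F test over days by limma (adjusted p = 0.0398), which it kept under 7 of 15 alternatives.

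KLK6 was at its highest around calving and low on most arrays from day +15. By the probe near the 3′ end, its levels were -0.88, 0.24, -1.42 and -2.83 at day -30, and -1.46, -1.29, -1.86 and -2.65 at day -15. At day +1 they were 0.07, 0.26, 0.46 and -3.10. At day +15 they were -4.69, -3.23, -3.79 and -7.98.

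At day +1 animals 1, 2 and 3 lay close together and animal 4 lay below them. Each animal was lower at day +15 than at day +1 and the groups do not overlap: the difference of means was -4.35 on the log2 scale (20.3-fold, SD of the animals' differences 0.63). A2ML1 was apart in the same direction, as were 998 of all 20643 genes (4.83%), and ELP and RNASE3 were not. Animal 4 had the lowest KLK6 level of the 4 animals at each sampling up to day +60, where animals 2, 3 and 4 lay close together near background.

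The rest of the KLK6 course lay mostly close to background. The levels were -4.54, -3.15, -1.83 and -7.65 at day +30 and -4.81, -7.31, -7.40 and -7.56 at day +60. They were -5.19, -7.61, -6.16 and -4.77 at day +120, -6.84, -7.99, -7.24 and -8.02 at day +180, and -5.71, -6.18, -7.90 and -3.32 at day +240. The spot was well above background on 3, 3, 1, 2, 0 and 2 of 4 arrays at day +15, +30, +60, +120, +180 and +240.

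With 0 of 4 arrays above background at day +180, the measured means of -0.58 at day +1 and -7.52 at day +180 give only a bound. On the table's values, that lower bound for this probe was 30.8-fold (4.95 on the log2 scale), with day +1 the higher day. It does not hold across the processing, since under normexp background correction the same probe differed by 4.37. That bound sets the mean of day +1 against, on each array of day +180, the higher of the KLK6 signal and the lowest signal of any probe well above background.

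The other KLK6 probe had a weak signal, and its levels did not show this course. Its day means were -5.13 at day -30, -5.46 at day -15, -3.97 at day +1, -4.13 at day +15, -4.98 at day +30, -4.70 at day +60, -5.40 at day +120, -6.27 at day +180 and -4.53 at day +240. At day +15, where the first probe was lower in all animals, its levels were -4.83, -4.25, -4.23 and -3.21, against -4.08, -3.64, -3.48 and -4.69 at day +1. Animals 1, 2 and 3 were thus lower at day +15, and animal 4 was higher. Before scaling, the signal of this probe was 224, 429, 390 and 80.4 units at day +1. At day +15 it was 74.0, 93.5, 106 and 112 units, on dim arrays (75th percentile 1029 to 2114). At day +180 it was 16.3 to 52.0 units, well above background on 2 of 4 arrays. The 2 probes share a highest day (+1) and a lowest day (+180), but only the first probe had groups apart between day +1 and day +15. Averaging both gives a difference of 4.62 between day +1 and day +180 in place of 6.94. Per the labels, the RNA was amplified from its poly(A) end. Whether the probes report different transcripts, or differ in binding yak RNA, was not tested. The part of the weak signal and of array brightness in their difference was not tested either.

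**Figure D3:**
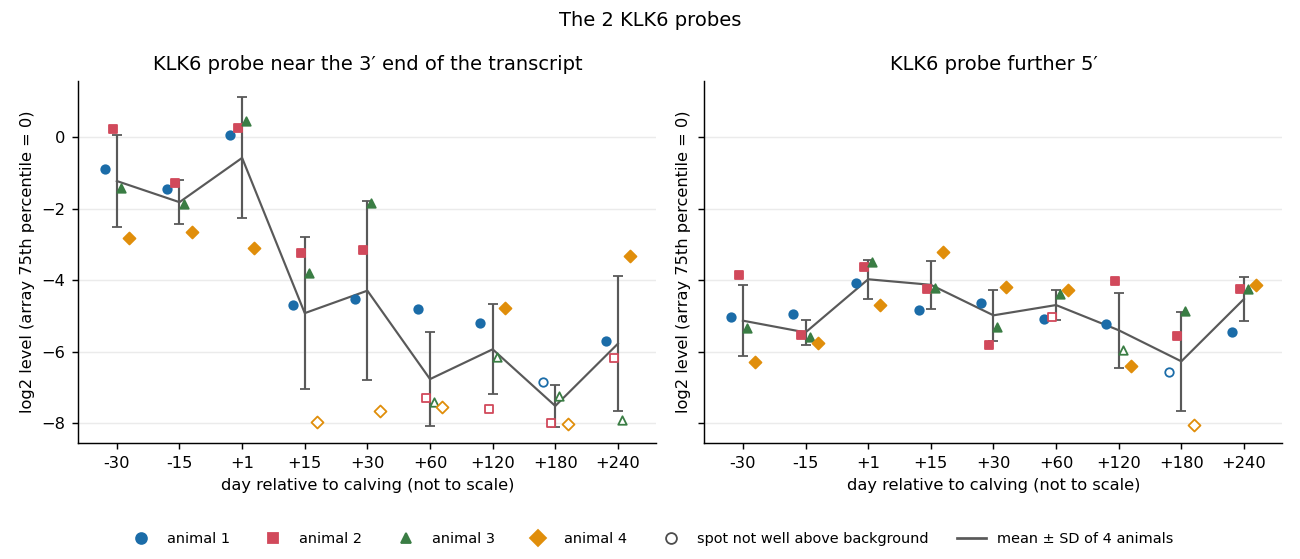
Log2 level of the 2 KLK6 probes by sampling day (not to scale), 1 symbol for each animal, with day means and bars of 1 SD over 4 animals and open symbols for spots not well above background. The probe starting at base 1382 is lower at day +15 than at day +1 on all arrays, and the probe starting at base 716 stays between day means of -6.27 and -3.97.

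A2ML1 was lower at day +1 than in late pregnancy in every animal. Its levels were -1.38, -0.41, -1.63 and -1.59 at day -30 and -1.68, -1.31, -2.16 and -1.88 at day -15. At day +1 they were -4.21, -4.27, -4.43 and -5.02, and at day +15 they were -5.40, -7.95, -5.60 and -7.34.

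All 4 animals were lower at day +1 than at day -15 and the groups do not overlap, with a difference of means of -2.72 on the log2 scale (6.61-fold) and an SD of the animals' differences of 0.39. Of the 4 genes A2ML1 alone was apart in this step, as were 2507 of all 20643 genes (12.1%). By day +15 levels were lower again in all animals, with a difference of means of -2.09.

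Later levels of A2ML1 had no common direction. They were -5.88, -5.71, -1.52 and -6.66 at day +30, -4.79, -7.19, -6.28 and -6.60 at day +60, and -5.30, -5.67, -6.13 and -4.17 at day +120. They were -5.59, -6.33, -7.21 and -5.32 at day +180 and -4.92, -7.67, -7.29 and -4.90 at day +240. Animal 3 at day +30 was at a level of late pregnancy, on the array where RNASE3 was -6.24 and ELP -2.10. Without that array the mean of day +30 was -6.12 in place of -4.95. The spot was above background on 2, 3, 1, 2, 1 and 2 of 4 arrays from day +15 to day +240, so the depth of the trough is not measured well. The lowest mean, -6.57 ± 1.27 at day +15, rests on 2 arrays above background, and the 39.9-fold difference from day -30 (-1.25 ± 0.57) depends on them.

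Set against day -30, all 4 genes were lower at day +180 on every array. The differences of means were -8.08 for ELP, -7.99 for RNASE3, -6.30 for KLK6 and -4.86 for A2ML1 on the log2 scale, and 2097 of all 20643 genes (10.2%) were likewise apart and lower. At day +180 the spot was well above background on 4 of 4 arrays for ELP, 2 for RNASE3, 0 for KLK6 and 1 for A2ML1, so the last 3 sizes rest on signals near background. For the members this share is background to a choice made on the same days, and nothing is read from it.

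The animals themselves were compared because the choice of genes did not rest on them. The F test between the 4 animals by limma, after fitting the days, gave adjusted p-values of 0.481 for ELP, 0.825 for RNASE3, 0.375 for KLK6 and 0.742 for A2ML1. None of the 4 passed, and none had an unadjusted p under 0.05 (the lowest was 0.132 by limma, for KLK6), where 1733 of all genes passed (8.40%). The mean KLK6 level was -5.32 ± 2.43 (SD over 9 days) in animal 4 and -3.78 ± 2.40, -4.03 ± 3.34 and -4.13 ± 3.12 in animals 1, 2 and 3. Each animal kept 1 position on the slide at every day, so animal and position cannot be told apart, and a p that misses the threshold does not show that the animals were alike.

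The day record changes what the end of the course looks like. With the days of the scanner files, day +240 holds the arrays that the table places at day -30 for animals 1, 2 and 3, next to the same array of animal 4. ELP then had a mean of 4.42 ± 0.38 at day +240, RNASE3 2.62 ± 0.84, KLK6 -1.35 ± 1.49 and A2ML1 -2.08 ± 1.95, all high where the table's record has them low. Day +180 stayed low in both records, with -4.05 for ELP, -5.18 for RNASE3, -6.95 for KLK6 and -6.30 for A2ML1 in the scanner record.

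The days from which levels were low differed between the records. In the scanner record A2ML1 was at -1.69, -3.70 and -5.99 at day -30, -15 and +1, KLK6 at -0.47 at day -15 and -3.70 at day +1, and ELP at 2.25 at day +30 and -0.78 at day +60. Low levels of these 3 genes thus began earlier than by the table. RNASE3 was at 1.67, -1.39 and 2.62 at day -30, -15 and +1, so its low level before day +15 lay at day -15 in place of day +1. The SD within days, pooled over days, was 1.90 by the table and 1.50 by the scanner record for ELP, 2.53 and 2.35 for RNASE3, 1.59 and 1.44 for KLK6, and 1.17 and 1.43 for A2ML1. In the scanner record, KLK6 of the table's animal 4 at day +1 (-3.10) was the highest of that day. The other arrays were at -4.69, -3.23 and -3.79. At day +15 of that record, the table's animal 4 was at -7.98 and the other arrays at -4.54, -3.15 and -1.83. Which record is right cannot be told from these values.

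**Figure D4:**
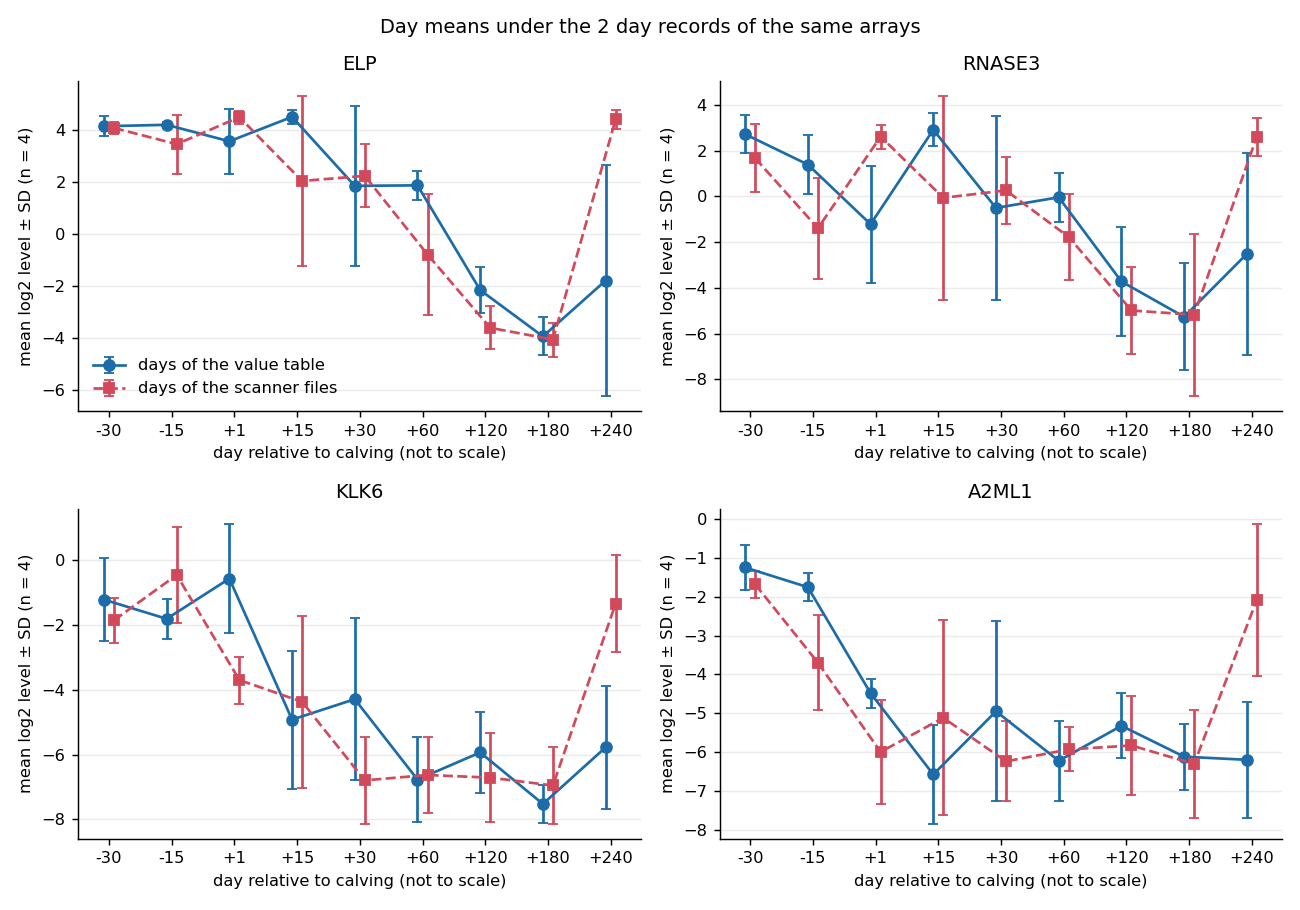
Day means of the log2 level with bars of 1 SD (n = 4 arrays) against sampling day (not to scale) under the table's record (solid) and the scanner files' record (dashed) of the same 36 arrays. Under the scanner record the low levels of ELP, KLK6 and A2ML1 begin earlier, and day +240 is high for all 4 genes, with ELP at 4.42.

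By the likeness of their levels over the 36 arrays, among 13424 named genes, the genes nearest to ELP were DPY19L2 (r = 0.86), MLF1 (0.86), MSTN (0.86), SRD5A1 (0.85) and TSPAN19 (0.84). MSTN is myostatin, an inhibitor of muscle growth, and had its highest day mean at day +15 (-1.15) and its lowest at day +180 (-6.94). SRD5A1 is a steroid 5-alpha-reductase. The nearest to RNASE3 were GRIP1 (0.84), AADAT (0.84), CEP78 (0.83), RNF43 (0.83) and MLF1 (0.82), and MLF1 was the 1 gene on both lists. RNF43 is a membrane ubiquitin ligase that limits Wnt signalling. Over deviations from the day mean, DPY19L2 kept an r of 0.88 with ELP and RNF43 one of 0.82 with RNASE3.

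The nearest to KLK6 were WWTR1 (0.87), VIT (0.87), GBP6 (0.85), AKAP7 (0.85) and ANLN (0.84). WWTR1, also called TAZ, is a transcriptional coactivator of the Hippo pathway, and ANLN, anillin, is needed for cell division. The nearest to A2ML1 were PLCH1 (0.88), DRD1 (0.87), GPC4 (0.87), STK10 (0.86) and ROM1 (0.86). GPC4 is a cell-surface heparan sulphate proteoglycan, and its day mean was 0.83 at day -15 and -3.32 at day +60. DRD1 is a dopamine receptor, with -0.96 at day -15 and -5.62 at day +60. These r values describe arrays that share slides, days and brightness.

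Genes next to the members on the cattle assembly are given with their differences between days, where the median over all genes was 1.03. The members were chosen for wide differences, so smaller ones beside them follow from the choice. Within 150000 bases of ELP 6 other genes were measured, with differences between highest and lowest day mean from 0.64 (DBNDD2) to 1.46 (RBPJL). PIGT, whose probe is the nearest to that of ELP, differed by 0.81. Around A2ML1, its paralogue A2M, the circulating protease trap, differed by 0.48 and was at a day mean of 3.36 to 3.84 throughout, while PHC1, M6PR and RIMKLB differed by 0.51 to 1.04. By limma, RBPJL (-1.02 on the log2 scale, adjusted p = 0.00694), TP53TG5 (-0.86, adjusted p = 0.0472), CLEC11A (-0.84, adjusted p = 0.0374), PHC1 (-0.57, adjusted p = 0.00715) and RIMKLB (-0.30, adjusted p = 0.0421) were lower in lactation than in pregnancy. SDC4 (0.76, adjusted p = 0.014) and CTU1 (0.55, adjusted p = 0.00128) were higher.

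**Figure D5:**
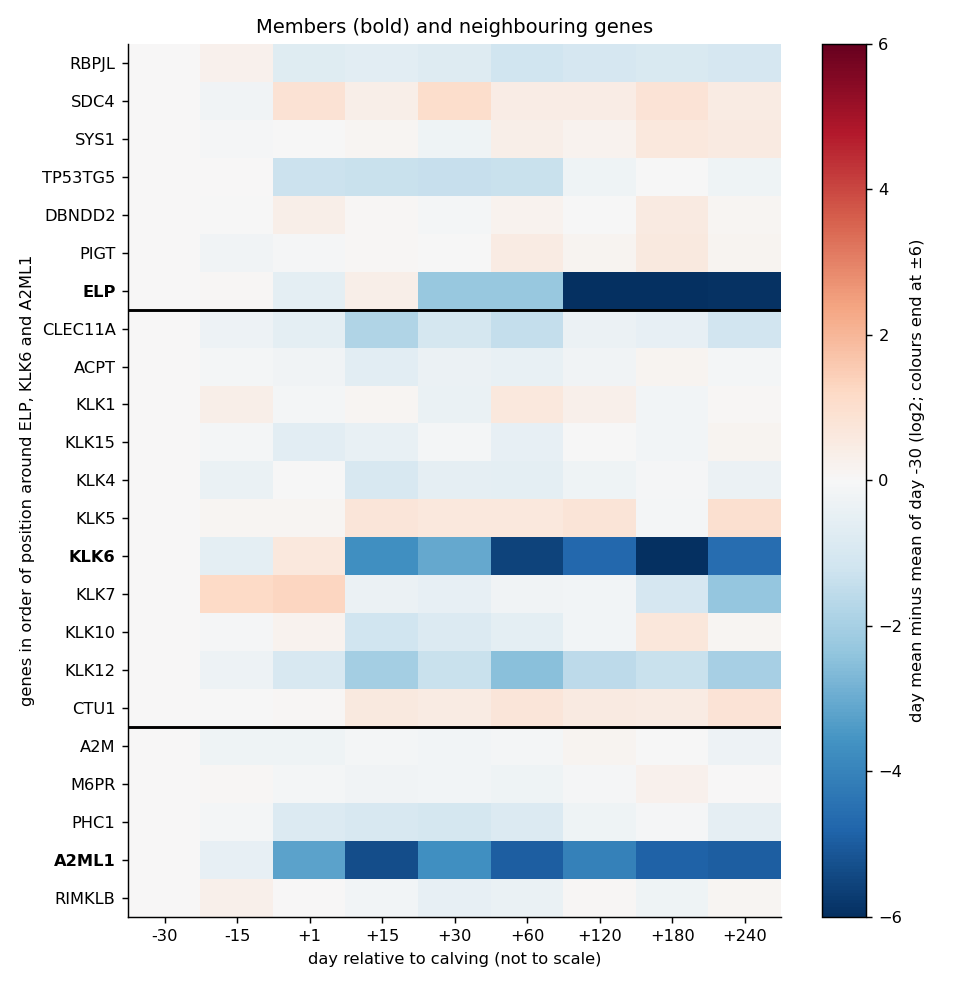
Colours give the day mean minus the mean of day -30 (log2) for ELP, KLK6 and A2ML1 (bold) and the genes within 150000 bases of each, in order of position, against sampling day (not to scale). The members' rows turn dark blue, and the neighbours stay pale, with KLK12 and KLK7 the next largest in the kallikrein cluster.

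The kallikrein cluster holds 7 other measured members of the family, all within that distance of KLK6. Of these, 3 passed the F test over days by limma at an adjusted p under 0.05, where 42.1% of all genes did. By limma none was higher and none lower in lactation (mean of the 7 days from +1 to +240) than in pregnancy (mean of day -30 and -15), with 16.6% of all genes higher and 19.3% lower. At an unadjusted p under 0.05 the counts were 0 and 0, and by ordinary linear models 0 and 1. The family's median difference was -0.18 against -0.04 for all genes. KLK7, an enzyme of skin shedding, went from -2.39 at day +1 to -5.99 at day +240 (adjusted p = 0.0457, kept under 6 of 15 alternatives). KLK10 was lowest at day +15 (-3.30) and highest at day +180 (-1.45; adjusted p = 0.0306, kept under 9 of 15). KLK15 stayed between -2.79 and -1.99 (adjusted p = 0.00731, kept under 12 of 15). KLK12, with day means of -0.82 at day -30 and -3.31 at day +60, did not pass (adjusted p = 0.685).

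Receptors cut by trypsin-like proteases were measured as possible partners of KLK6. Of the 4 protease-activated receptors, 2 passed the F test over days, where 42.1% of all genes did. In lactation 2 were higher and 1 lower, against 16.6% and 19.3% of all genes. F2RL1, the receptor cleaved by trypsin-like enzymes, rose by 2.72 ± 0.42 (SE, adjusted p = 1.64e-05 by limma), from -1.95 at day -30 to 1.89 at day +60, and the call held under 15 of 15 alternatives. F2RL3, a thrombin receptor, fell by 0.47 ± 0.11 (adjusted p = 0.00183), a call lost under normexp background correction and the scanner record. At day +60, where F2RL1 had its highest mean, KLK6 by its first probe was at -6.77.

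Among 14 other epithelial serine proteases and genes of plasminogen activation, 4 passed the F test (42.1% of all genes did). In lactation 3 were higher and 2 lower, against 16.6% and 19.3% of all genes. PRSS23, a secreted serine protease, rose by 1.06 ± 0.19 (adjusted p = 9.46e-05 by limma, lost under the scanner record). PLAT, tissue plasminogen activator, rose by 0.58 ± 0.18 (adjusted p = 0.0136, lost under 4 of 15 alternatives). PRSS27 fell by 0.48 ± 0.13 (adjusted p = 0.00417, lost under 3 of 15 alternatives).

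Other inhibitors of the class of ELP were counted in the same way. Of 10 others with WAP or Kunitz domains, 3 passed the F test, and by limma 3 were higher and 0 lower in lactation (5 and 1 at an unadjusted p under 0.05, 4 and 0 by ordinary linear models, 3 and 2 with brightness as a covariate), against 16.6% and 19.3% of all genes. Their median difference was 0.37. WFDC2, a WAP-domain protein of epithelial secretions, rose by 1.51 ± 0.35 (adjusted p = 0.00128 by limma, kept under 15 of 15 alternatives). SPINT2, a Kunitz inhibitor of membrane serine proteases, rose by 0.88 ± 0.18 (adjusted p = 0.000541, lost with brightness as a covariate). PI3, elafin, ranged from -4.47 to -3.19. SLPI, the secretory leukocyte inhibitor, had its lowest day mean at day -30 (-4.79) and its highest at day +30 (-1.41) and did not pass the F test (adjusted p = 0.39).

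The family of A2ML1 had members called in both directions. Of 6 others of the alpha-2-macroglobulin family, 2 passed the F test (42.1% of all genes did). In lactation 3 were higher and 1 lower, against 16.6% and 19.3% of all genes, and the median difference was 0.79. Under quantile normalization and under the scanner record 1 was higher and 0 lower. CD109, a membrane-bound member, rose by 1.19 ± 0.21 (adjusted p = 0.000104 by limma, kept under 15 of 15 alternatives). C3, the central complement protein, rose by 1.00 ± 0.23 (adjusted p = 0.00139) and again by 1.01 ± 0.29 from peak to late lactation (day +30 and +60 to day +180 and +240, adjusted p = 0.0196). In that comparison 8.74% of all genes were higher and 5.19% lower. The rise of C3 in lactation was lost under quantile normalization and the scanner record. The later one was lost under both, for the mean of probes (adjusted p = 0.119) and without animal 1, 2 or 3 (adjusted p = 0.0747, 0.0726 and 0.152 by limma).

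Other inhibitors went both ways. The shares of all genes beside the next 3 lists are 42.1% past the F test, 16.6% higher and 19.3% lower in lactation. Of 21 serpins, 4 passed the F test, and in lactation 1 was higher and 1 lower. SERPINA11 fell by 3.73 ± 0.57 (adjusted p = 1.4e-05 by limma, lost under the scanner record), from 0.05 at day -30 to -4.41 at day +1. A2ML1 was lower from the same sampling on. Of 13 Kazal inhibitors, cystatins and TIMPs, 5 passed the F test, with 6 higher and 2 lower in lactation. SPINK4, a Kazal inhibitor of secretory epithelia, rose by 3.20 ± 0.75 (adjusted p = 0.00167, lost with brightness as a covariate). TIMP2, an inhibitor of matrix metalloproteinases, rose by 0.92 ± 0.14 (adjusted p = 1.69e-05, kept under 15 of 15 alternatives). Among 14 matrix metalloproteinases, 5 passed the F test, 2 were higher and 0 lower in lactation by limma (3 and 1 at an unadjusted p under 0.05, 2 and 0 by ordinary linear models), and MMP9, a gelatinase, rose by 0.95 ± 0.20 (adjusted p = 0.000556, kept under 15 of 15).

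Of 10 other genes of the ribonuclease A list, 6 passed the F test, where 42.1% of all genes did. By limma 4 were higher and 0 lower in lactation (16.6% and 19.3% of all genes), with a median difference of 0.23. The counts were 4 and 1 at an unadjusted p under 0.05, 4 and 0 by ordinary linear models, and 0 and 0 with brightness as a covariate. ANG, angiogenin, a ribonuclease found in milk, rose by 1.50 ± 0.31 (adjusted p = 0.000509 by limma, lost with brightness as a covariate), from 1.33 at day -30 to 3.73 at day +60. RNASE1 was highest at day +1 (4.33), the day on which RNASE3 was low in 3 animals, and lowest at day +120 (1.54) (F test over days, adjusted p = 0.0313, kept under 10 of 15 alternatives). RNH1, the intracellular ribonuclease inhibitor, had day means from 3.09 to 4.35.

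Cells other than the secretory epithelium were followed through markers. Of 16 neutrophil markers, 8 passed the F test, where 42.1% of all genes did. In lactation 8 were higher and 1 lower, against 16.6% and 19.3% of all genes, and with brightness as a covariate 6 and 3. S100A8, a neutrophil calprotectin subunit, rose by 2.73 ± 0.63 (adjusted p = 0.00132 by limma), and PGLYRP1, a peptidoglycan-binding granule protein, fell by 2.19 ± 0.22 (adjusted p = 3.15e-08). Both calls were lost under the scanner record. The log2 of the summed level of the 16 markers was 3.53 to 3.96 on the pregnancy arrays. At day +15 it was 6.58 in animal 1 and 3.75, 3.50 and 4.35 in animals 2, 3 and 4.

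Squamous epithelium of skin and teat, in which KLK6, KLK7 and A2ML1 are known to be made, is represented by 18 markers. Of these 8 passed the F test (42.1% of all genes did). In lactation 3 were higher and 7 lower, against 16.6% and 19.3% of all genes, and their median difference was -0.33. Under normexp background correction 4 were higher and 1 lower, with a median of 0.20. TGM1, a cross-linking enzyme of the cornified envelope, had its highest day mean at day +1 (-2.67) and its lowest at day +120 (-6.39), and DSG3, a desmosome protein, ran from -4.57 at day +15 to -7.00 at day +240. The log2 of the summed marker level was 4.73 to 5.69 on the pregnancy arrays, 5.33 to 6.19 at day +1 and 4.48 to 5.81 at day +15. Levels were summed on the linear scale, so the brightest markers weigh most. The list shares KRT5 and KRT14 with the myoepithelial list, so the sum need not follow squamous tissue. The mean log2 level of the markers was -2.03 to -1.40 in pregnancy, -1.95 to -1.23 at day +1 and -1.93 to -1.52 at day +15. Both measures overlap across the days from which A2ML1 and KLK6 were low. The part of squamous tissue in the A2ML1 and KLK6 values was not tested.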

How the data were processed

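Per the file headers, the authors' scanner software was Feature Extraction 10.7.3.1, and the deposited scanner files give processed signals in intensity units, with flags (0 or 1) for spots well above background. The authors also deposited a table of log2 values, made with GeneSpring 12 per the labels. Each column equals log2 intensity less the array's 75th percentile within 0.00409, its scale and centring follow from that, and column medians run from -1.70 to -1.34. Aligner and build do not apply, and probe positions are those of the file headers.

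The table was used as deposited, under its own sample titles. Fits used limma 3.58.1 (R 4.3.3, statmod 1.5.0, and the package data.table in version 1.17.8), with day as fixed effect and animal as random block (consensus correlation 0.0534), over 20643 genes or unnamed transcripts, Benjamini-Hochberg adjustment and a threshold of 0.05. The authors tested time with animal as random in JMP Genomics 7, per the labels. The pairing comes from the labels' animal numbers. Deviations from day means had a mean r of 0.15 within and -0.05 between animals, and 32 of 36 arrays matched their own animal best. Each animal kept 1 slide position, so these values cannot tell animal from position. Taking deviations from the mean of 4 arrays also lowers the r between animals. On simulated data the pregnancy against lactation fit recovered 76 of 100 genes with a log2 change of 1, 93 of 100 with a change of 2, and called 5 unchanged ones.

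The members and lists were chosen with earlier results of these data known. Named are the members, for each the 5 most correlated genes, and in each list up to 4 genes past the F test with the widest range of day means. KLK12, SLPI, RNH1, A2M and the neighbours within 150000 bases were named after their values were seen. Symbols are those of the array files, and the yak gene list holds 11574 of 14196 of them. Replicates are animals, and 4 a day limit the precision. Alternatives were quantile normalization, normexp (offset 50), the scanner record, the mean of probes, a brightness covariate, a filter on dim probes (3 of 4 arrays above background on a day), other block settings, each animal left out, and 2 sets of arrays left out after the data were seen. Tables were handled in Python 3.11.15 with pandas 2.3.3 and numpy 2.4.6, and plots drawn with matplotlib 3.10.9.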

Additional observations from a re-analysis of the deposited data

Results flagged for a closer look

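In 4 of 45 groups of 4 arrays (5 probes at 9 days) 1 array lay far from the other 3 by Dixon's test, whose critical value is 0.829 and which chance passes in about 1 group in 20. ELP in animal 4 at day +240 was at 4.81, with the other animals between -4.82 and -3.29. KLK6 by the probe near the 3′ end was at -3.10 in animal 4 at day +1, with the others between 0.07 and 0.46, and at -4.81 in animal 1 at day +60, with the others between -7.56 and -7.31. KLK6 by the other probe was at -5.46 in animal 1 at day +240, with the others between -4.26 and -4.15. The causes were not tested.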

How the results depend on the processing

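The difference between the highest and the lowest day mean, each setting taking its own highest and lowest day, changed in size with the processing. For ELP (8.44) it was 7.79 under normexp and 9.88 with brightness as a covariate, for RNASE3 (8.19) 11.6 with brightness, for KLK6 (6.94) 4.37 under normexp and 4.62 for the mean of both probes, and for A2ML1 (5.32) 3.22 under normexp and 3.50 with brightness. Under the scanner record it was 8.55, 7.80, 6.49 and 4.61. Leaving out each animal gave 8.22 to 8.85, 6.96 to 9.08, 6.51 to 7.62 and 4.58 to 5.77, in that order of genes. With the table's days held fixed, the scanner record gave 6.10, 5.12, 3.25 and 3.43. The highest day was not the same in all settings: with brightness it was day -30 for ELP and RNASE3.

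Each count here is taken anew over all genes in its setting and is not an overlap with the main fit. Over the course 8701 genes passed, against 4713 under normexp, 4471 under the scanner record and 2188 to 6474 with an animal left out. Between pregnancy and lactation 7411 passed, against 4511 under the scanner record, 4763 with brightness and 4370 to 6030 with an animal left out. Between peak and late lactation 2876 passed, against 1347 under normexp, 1366 under the scanner record, 5326 with brightness and 234 (without animal 3) to 2430. Between animals 1733 passed, against 848 under normexp, 2977 with brightness and 721 to 1146 with an animal left out. The share of higher calls in lactation was 46.2%, but 69.6% under normexp, 56.6% under the scanner record and 30.8% with brightness. From peak to late lactation it was 62.7%, but 50.4% for the mean of probes and 45.7% without animal 3. Normexp moved the median gene to 0.16 in lactation and -0.12 late. Without the replicate block 7602 genes passed over the course, 7001 in lactation and 2381 late. The slide as a random block was not run, since each slide holds 1 day. The low levels of KLK6, A2ML1 and RNASE3 lie near background. The cause of these changes was not tested.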

Other observations

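EXPI, an extracellular proteinase inhibitor gene noticed after its values were seen, had a low mean over the days in 1 animal. Its mean log2 level over 9 days was -7.44 ± 1.82 (SD, from -9.24 to -3.27) in animal 3. It was 0.64 (-2.32 to 3.35), -0.93 (-4.59 to 3.26) and 0.39 (-1.39 to 1.42) in animals 1, 2 and 4. The ranges of animals 2 and 3 over the days overlap. The F test between animals by limma gave an adjusted p of 1.40e-06, rank 93 of 20643. Animal and slide position cannot be told apart.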
